A study of Mus musculus with 4 samples.

Results

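The genes described here are the pyruvate dehydrogenase complex and the kinases that switch it off, 9 of the 17904 genes read on mouse quadriceps arrays. They were chosen by name: Pdha1, Pdhb, Dlat, Dld and Pdhx for the complex, and Pdk1, Pdk2, Pdk3 and Pdk4 for the kinases. Each had 1 row in the deposited table. The arrays came from 5-week-old male mice of the CD-1 strain, 2 carrying a Lin28A transgene (Lin28A Tg) and 2 wild type (WT). The labels give neither the promoter of the transgene, the feeding state nor whether each RNA came from 1 animal, so a p-value here covers the spread of these samples alone, which may be technical. Values are fluorescence intensities from Illumina Ref-8 bead arrays, normalized between arrays by the authors without background subtraction. The commonest value was 84.8, and the background level, beyond which a gene was taken as above background, was set at 90.05.

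Pyruvate dehydrogenase sits in the mitochondrial matrix and turns pyruvate, the end product of glycolysis, into acetyl-CoA for the tricarboxylic acid cycle. The kinases phosphorylate its E1 alpha subunit and stop the reaction, and the pyruvate dehydrogenase phosphatases restart it. In muscle Pdk4 is the kinase known to rise with fasting, which spares glucose while fatty acids are burnt. The protein Lin28a binds RNA and keeps let-7 microRNAs from maturing, and Pdk1 has been described as a gene on which Lin28 and let-7 act.

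The let-7 family is shown because it is the described link between Lin28a and Pdk1, the only member named above as such. No microRNA was measured on the arrays. The RefSeq entries used (GRCm38.p6), which may not hold every locus, gave 9 mature names from 11 loci. These are let-7a to let-7g, let-7i and miR-98, and all carry the same seed at bases 2 to 8, in capitals below. The entries of the 3 printed lie on chromosomes 13, 17 and X.
let-7a-5p: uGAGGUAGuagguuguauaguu
let-7e-5p: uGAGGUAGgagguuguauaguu
miR-98-5p: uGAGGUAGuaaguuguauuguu

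The arrays carried the profile of fast muscle, and both WT arrays stood apart in 1 marker list each. All 7 general skeletal muscle markers in the table and all 9 fast-fibre markers were above background. WT replicate 1 had a summed intensity over 8 hepatocyte markers of 13480, against 671 to 728 on the other 3 arrays. Its Apoa2 read 5506, while Alb, the albumin gene, read 77.7 and was not above background on any array. WT replicate 2 had a summed intensity over 8 slow-fibre markers of 9326, against 1440 to 3701 on the others, although Myh7, the slow myosin heavy chain, was not above background anywhere. Adipocyte markers summed to 6068 and 7205 in Lin28A Tg and to 7723 and 5879 in WT. Macrophage markers, all 6 above background, summed to 1716 and 1661 in Lin28A Tg and to 1347 and 1342 in WT, which do not overlap. The brightest, Cd74 and C1qb, weigh most in these sums, and the groups overlapped for C1qa, Csf1r and Adgre1. Of the 6, 4 were higher and 2 lower in Lin28A Tg. Both Lin28A Tg arrays lay above both WT arrays for 3 of the 6 and below for 0. Over all genes tested these shares were 21.6% and 16.8%. Fibroblast markers, all 6 above background, summed to 7853 and 7141 against 7332 and 6517. Of these 6, 2 were higher in Lin28A Tg without overlap at an unadjusted limma p under 0.05. Over all genes tested, 5.06% were higher at that p and 21.6% were higher without overlap. Col1a1 read 1949 and 2010 against 1044 and 1243, and Col3a1 read 204.7 and 166.1 against 150.4 and 129.8. The groups overlapped for Col1a2, Lum, Pdgfra and Dcn. Dcn was lower on average, at 3699 and 3190 against 4249 and 3569. The part of these markers in the results below was not tested, and in whole muscle fewer cells of a type and less RNA per cell cannot be told apart. The Lin28a probe read 86.4 and 88.0 in Lin28A Tg and 82.9 and 82.6 in WT, not above background on any array, so it does not check the labels.

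**Figure D1:**
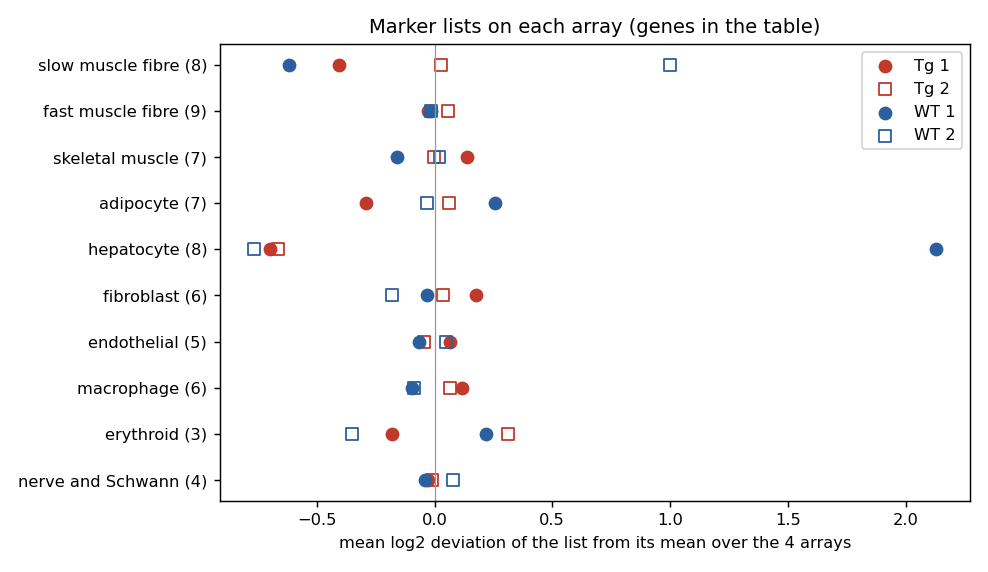
Mean log2 deviation (x axis) of each marker list (y axis, with the number of its genes in the table) from its own mean over the 4 arrays, 1 point per array. WT replicate 1 lies at 2.13 for hepatocyte markers and WT replicate 2 at 1.00 for slow-fibre markers, apart from the other arrays.

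Pdk4 was higher in Lin28A Tg muscle, but neither it nor any other of the 7 tested members passed the test. The 4 tested subunits of the complex had log2 differences from -0.16 to 0.08, and Pdhx was not tested. The limma interval ran from -0.47 to 0.45 for Pdha1 and from -0.46 to 0.15 for Pdhb. These intervals are too wide to show that the groups were alike. By limma with Benjamini-Hochberg adjustment over 7891 genes tested, 0 genes (0.0%) had an adjusted p under 0.05, the smallest being 0.366. At an unadjusted p under 0.05, 399 genes (5.06%) were higher in Lin28A Tg and 301 (3.81%) were lower. Among the tested members that was 1 higher, Pdk4, and 0 lower. Both Lin28A Tg arrays lay above both WT arrays for 2 of the 7, Pdk4 and Dlat, against 21.6% of all genes tested. They lay below both for 1 of the 7, Pdhb, against 16.8%. These shares are near the background, so the counts are no result about the members. An exact permutation test of 2 samples against 2 cannot give a two-sided p below 0.333.

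**Figure D2:**
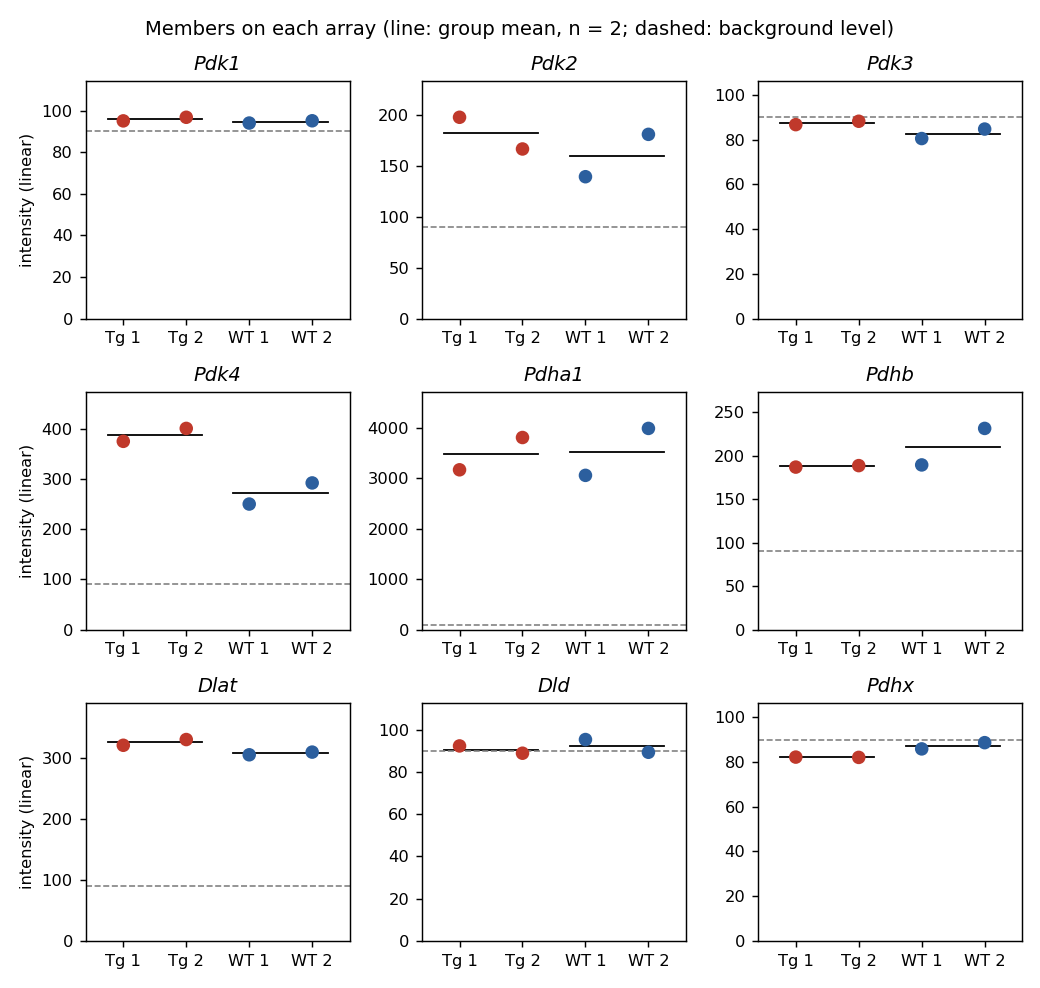
Intensity (y axis, linear, from 0, a different scale in each panel) of the 9 members on each array (x axis; Tg, Lin28A Tg), with group means as lines and the background level dashed. Pdk4 reads 375 and 400 in Lin28A Tg against 250 and 292 in WT, and Pdk3 and Pdhx lie under the background level of 90.05 on all 4 arrays.

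Among the kinases, Pdk4 read 374.7 and 400.4 on the Lin28A Tg arrays and 250 and 292 on the WT arrays. Both transgenic arrays were above both wild-type arrays, and the gap between the groups was wider than the spread within either. The means were 387.5 ± 18.2 and 271.0 ± 29.7 (SD, n = 2 each), a 1.43-fold difference. On the log2 scale the difference was 0.52 (SE 0.10, 95% interval 0.25 to 0.79), with an unadjusted p of 0.00542 and an adjusted p of 0.482 by limma. By p, 82 of the 7891 genes tested ranked ahead of it, and 65 genes, Pdk4 included, were higher by at least as much. Both arrays that stood apart in marker genes are WT. The Pdk4 difference was 0.41 without WT replicate 1 and 0.63 without WT replicate 2, with adjusted p of 0.546 and 0.273. Since background was not subtracted, any fold of these intensities is compressed. With normexp background correction the log2 difference of Pdk4 depended on the offset, at 0.64 for 16 and 0.57 for 50.

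Pdk2, a kinase expressed in most tissues, read 198.2 and 167.0 in Lin28A Tg and 139.7 and 181.4 in WT. The groups overlapped, since WT replicate 2 lay between the 2 transgenic arrays. The log2 difference was 0.19 (SE 0.16, 95% interval -0.25 to 0.64, adjusted p = 0.812 with limma). It was 0.00 without WT replicate 1, 0.07 without Lin28A Tg replicate 1, 0.32 without Lin28A Tg replicate 2 and 0.38 without WT replicate 2.

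Pdk1, the kinase known as a target of hypoxia signalling, read 95.1 and 96.8 in Lin28A Tg and 94.1 and 95.1 in WT. These values lie just above the background level, and the groups overlapped. The log2 difference was 0.02 (SE 0.06, 95% interval -0.13 to 0.17, adjusted p = 0.967 with limma). A probe this dim limits what can be seen: the interval applies to the intensity, background included, and the difference was 0.06 with normexp at an offset of 16. Pdk3 read 86.8 and 88.3 in Lin28A Tg and 80.5 and 84.8 in WT. None of the 4 was above background, so Pdk3 was not tested and no fold is given.

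Of the catalytic subunits, Pdha1, which encodes the E1 alpha subunit that the kinases phosphorylate, read 3166 and 3805 in Lin28A Tg and 3056 and 3985 in WT. The arrays numbered 2 were higher than those numbered 1 in both groups, and the groups overlapped. Its log2 difference was -0.01 (SE 0.17, 95% interval -0.47 to 0.45, adjusted p = 0.997 with limma). Without WT replicate 1 it was -0.20, and without WT replicate 2 it was 0.18, so no direction can be given. Pdhb, the E1 beta subunit, read 186.7 and 188.4 in Lin28A Tg and 189.2 and 231.1 in WT. The other 3 arrays were nearly equal, and WT replicate 2, the array with the slow-fibre markers, was higher. The log2 difference of -0.16 (SE 0.11, 95% interval -0.46 to 0.15, adjusted p = 0.779 with limma) was -0.01 without that array and -0.30 without WT replicate 1.

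Dlat, the E2 acetyltransferase that forms the core of the complex, read 320.9 and 330.3 in Lin28A Tg and 305.3 and 309.7 in WT. The transgenic arrays were above the wild-type arrays by a small amount. The log2 difference was 0.08 (SE 0.06, 95% interval -0.07 to 0.24, adjusted p = 0.768 with limma) and lay between 0.06 and 0.10 with any 1 array left out. Dld, the E3 dehydrogenase that the complex shares with other 2-oxo acid dehydrogenases, read 92.2 and 88.8 in Lin28A Tg and 95.3 and 89.3 in WT. It exceeded the background level on 1 array of each group, and its log2 difference was -0.03 (SE 0.07, 95% interval -0.21 to 0.15, adjusted p = 0.961 with limma). Pdhx, which binds E3 to the core, read 82.2 and 82.1 in Lin28A Tg and 85.9 and 88.7 in WT, and was not above background on any array. Its probe and that of Pdk3 give no level of the transcript. Pgk1, the phosphoglycerate kinase gene of glycolysis, was likewise not tested because it did not pass the background filter.

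**Figure D3:**
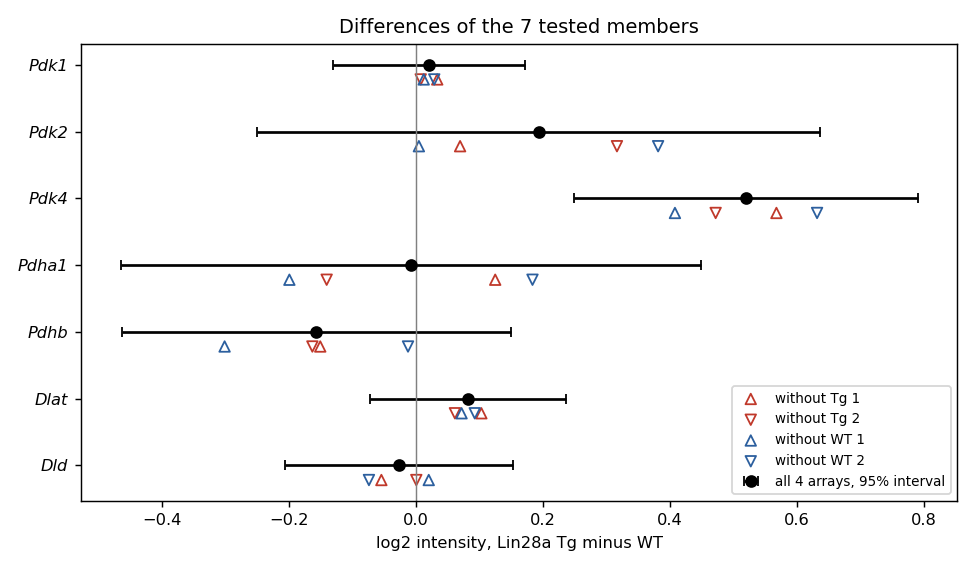
Log2 difference (x axis, Lin28A Tg minus WT) of the 7 tested members (y axis), with 95% intervals from limma as bars and, as triangles, the difference with each array left out. Pdk4 alone has an unadjusted interval that leaves out 0, at 0.25 to 0.79, and the triangles of Pdha1 lie on both sides of 0, from -0.20 to 0.18.

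The Pdk4 and Pdk2 promoters are shown because these are the 2 kinases read well above background, the first without and the second with overlap between the groups. Each is the 250 bases before the start in RefSeq (GRCm38.p6), both on the minus strand: Pdk4 at chr6:5496279-5496528, and the farther upstream of 2 listed starts of Pdk2 at chr11:95041372-95041621. Capitals mark the motifs found, namely the CCAAT box, which reads ATTGG on the strand shown, and in Pdk2 also the E-box.
Pdk4: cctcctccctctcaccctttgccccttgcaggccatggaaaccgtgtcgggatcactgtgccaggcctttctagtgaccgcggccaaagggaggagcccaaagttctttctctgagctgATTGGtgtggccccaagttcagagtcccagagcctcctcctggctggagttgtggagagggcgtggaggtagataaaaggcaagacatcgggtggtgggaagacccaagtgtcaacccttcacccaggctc
Pdk2: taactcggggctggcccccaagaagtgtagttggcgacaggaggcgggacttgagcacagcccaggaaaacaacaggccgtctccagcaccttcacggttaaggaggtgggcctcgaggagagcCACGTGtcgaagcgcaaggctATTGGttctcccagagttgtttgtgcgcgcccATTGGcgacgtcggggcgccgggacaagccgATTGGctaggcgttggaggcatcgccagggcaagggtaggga

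The search covered both strands of these windows for all 9 members, which have 11 listed starts. Pdk4 held 1 CCAAT box at 131 bases before the start, and Pdk2 held 3 and an E-box, spelt CACGTG. The CCAAT box was found in 33.8% of all 32851 windows of that length and an E-box in 6.02%. The core motif of HIF, ACGTG, which the E-box contains, was found in Pdk2, Pdk3 and Pdhb and in 16.6% of all windows. The letters GGGCGG, known as the binding motif of Sp1, were found in Pdk1, Pdk3, Pdhb, Dlat and Pdhx and in 32.7% of all windows. The FOXO motif GTAAACA, the nuclear receptor half-site AGGTCA and the oestrogen-related receptor motif AAGGTCA, which contains it, were found in none of the 11 windows and in 3.17%, 14.0% and 4.08% of all. The glucocorticoid receptor half-site AGAACA was found in 1 window, of Pdk1, and in 16.1% of all. These are letters only, and no binding was measured.

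Other genes that act on the same step did not pass the test either. Pdp1, the phosphatase that reactivates the complex in muscle, is listed under its older name Ppm2c and read 250.8 and 241.9 in Lin28A Tg against 284.5 and 268.8 in WT. Both transgenic arrays were lower than both wild-type arrays, as for 16.8% of all genes tested. The log2 difference of Pdp1 was -0.17 (SE 0.06, unadjusted p = 0.0555, adjusted p = 0.577 with limma). Pdp2, the other phosphatase, was at -0.02 (SE 0.11) and Mpc2, a subunit of the mitochondrial pyruvate carrier, at -0.11 (SE 0.12), both with overlapping groups. Pdpr was not above background, and Mpc1 was not analysed here.

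**Figure D4:**
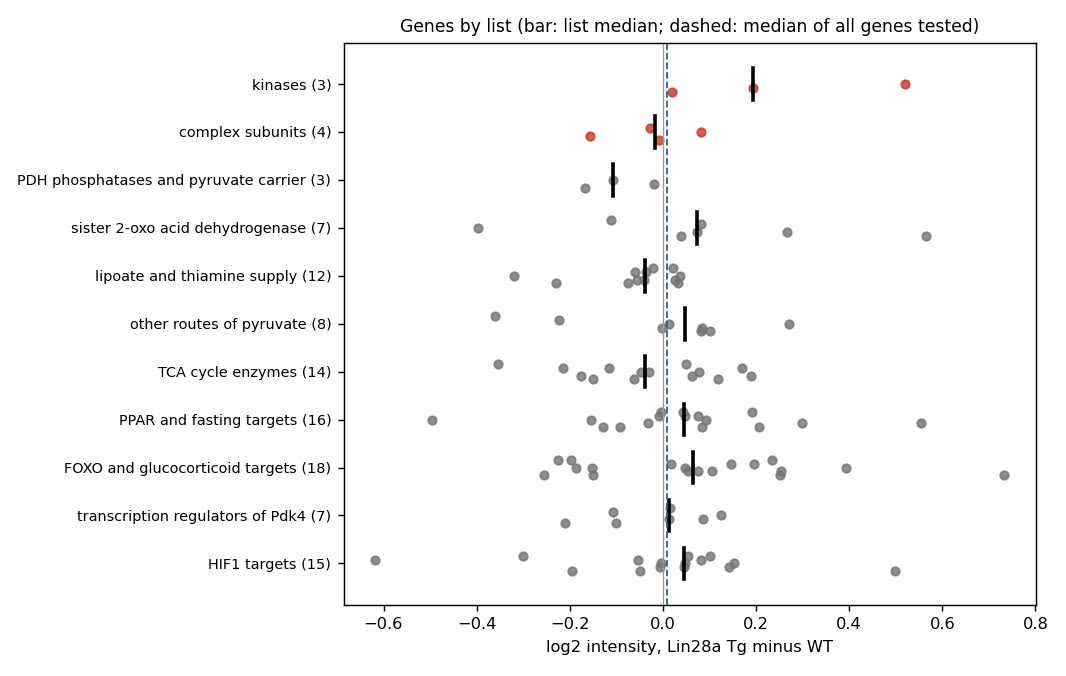
Log2 difference (x axis, Lin28A Tg minus WT) of each tested gene by list (y axis, with the number tested), members in red, list medians as black bars and the median of all genes, 0.01, dashed. Medians of the 9 lists of other genes lie between -0.11 and 0.07.

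Pdk4 is a textbook target of the PPAR receptors, and 16 of the 21 PPAR and fasting genes listed were tested. Of these, 9 were higher and 7 lower in Lin28A Tg, and the median log2 difference was 0.05 against 0.01 over all genes tested. Both Lin28A Tg arrays lay above both WT arrays for 4 of the 16 and below them for 0, where 21.6% and 16.8% of all genes did. Angptl4, a secreted inhibitor of lipoprotein lipase, read 220.9 and 240.6 in Lin28A Tg and 171.2 and 144.0 in WT. Its groups did not overlap. Its log2 difference was 0.55 (SE 0.11, unadjusted p = 0.00615, adjusted p = 0.482 with limma). With any 1 array left out it lay between 0.43 and 0.68. Without background correction the log2 difference of Angptl4 was close to that of Pdk4, 0.52. With normexp at an offset of 16 it was 0.82, against 0.64 for Pdk4. The next by p were Fabp3, the muscle fatty acid binding protein gene, at 0.30 (SE 0.18), the carnitine carrier gene Slc25a20 at 0.21 (SE 0.13) and Cpt2, of mitochondrial fatty acid import, at 0.19 (SE 0.13). Without Lin28A Tg replicate 2 these were 0.09, 0.03 and 0.03. The 18 tested FOXO and glucocorticoid targets had a median of 0.07, with 1 above both WT arrays, Txnip, and 1 below, Map1lc3b, against the same 21.6% and 16.8%. The autophagy gene Map1lc3b had the smallest p of the list, at -0.23 (SE 0.08, unadjusted p = 0.0447, adjusted p = 0.551 with limma), and was at -0.14 without WT replicate 1. Txnip, an inhibitor of glucose uptake, was at 0.39 (SE 0.20), and at 0.20 without Lin28A Tg replicate 1 or WT replicate 2. The stress gene Gadd45a read 287.2 and 646.9 in Lin28A Tg and 315.9 and 212.9 in WT, with overlap. Its log2 difference of 0.73 (SE 0.45) was 0.15 without Lin28A Tg replicate 2 and 1.32 without Lin28A Tg replicate 1. The cell cycle inhibitor gene Cdkn1a was at 0.15 (SE 0.09), with overlap, and at 0.06 without WT replicate 1.

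Of 13 listed transcription regulators of Pdk4, 7 were tested, with a median of 0.01. Rxrg, a retinoid X receptor that partners the PPARs, read 195.4 and 198.2 in Lin28A Tg and 232.1 and 223.4 in WT, without overlap (log2 difference -0.21, SE 0.06, adjusted p = 0.531 with limma). Foxo1 was at 0.09 (SE 0.06), Pparg at -0.10 (SE 0.08) and Esrra, an oestrogen-related receptor gene, at -0.11 (SE 0.11). Ppara, Ppard, Nr3c1 and Foxo3 were among the 6 not above background. For the HIF1 targets, the list to which Pdk1 relates, 15 of 24 were tested, with a median of 0.04. Eno1, the enolase gene, read 1482 and 1457 in Lin28A Tg and 1216 and 888 in WT (log2 difference 0.50, SE 0.16, adjusted p = 0.543 with limma), and was at 0.27 without WT replicate 2. Ndrg1 was at -0.19 (SE 0.10), Pfkfb4, which makes an activator of glycolysis, at 0.14 (SE 0.09) and Bhlhe40 at -0.30 (SE 0.19). With 1 array left out, Bhlhe40 was at -0.04 without Lin28A Tg replicate 2 and at -0.56 without Lin28A Tg replicate 1, and Pfkfb4 was at 0.06 and Ndrg1 at -0.08 without WT replicate 2.

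The sister complexes share the E3 subunit Dld and the lipoate chemistry of Dlat. Of their 12 listed genes 7 were tested, with a median of 0.07. Ogdh, the E1 subunit of 2-oxoglutarate dehydrogenase, read 712.6 and 928.8 in Lin28A Tg and 502.1 and 603.0 in WT, and Dlst, its E2 subunit, 1612 and 1578 against 1211 and 1451. Both were without overlap, at log2 differences of 0.56 (SE 0.17, adjusted p = 0.539) and 0.27 (SE 0.11, adjusted p = 0.583) with limma. Without WT replicate 1 these were 0.43 and 0.14, and without Lin28A Tg replicate 2 that of Ogdh was 0.37. Bckdha, the E1 alpha subunit of the branched-chain complex, lay the other way at -0.40 (SE 0.17), and its E2 gene Dbt was at -0.11 (SE 0.08). Bckdha was at -0.17 without Lin28A Tg replicate 1 and at -0.63 without Lin28A Tg replicate 2. Both Lin28A Tg arrays lay above both WT arrays for 2 of these 7, Ogdh and Dlst, and below for 1, Bckdha. Over all genes tested these shares were 21.6% and 16.8%. Of 16 genes of lipoate and thiamine supply 12 were tested, with a median of -0.04. Bola3, needed to build the iron-sulphur clusters of lipoate synthase, read 1887 and 1940 in Lin28A Tg and 2365 and 2415 in WT, the smallest p of the list (log2 difference -0.32, SE 0.06, unadjusted p = 0.00413, adjusted p = 0.482 with limma). With any 1 array left out it lay between -0.34 and -0.30. Isca1, another iron-sulphur assembly gene, was at -0.23 (SE 0.06) without overlap, while Mcat and Glrx5 were both at -0.06 with overlap. In this list 2 of the 12 tested, Bola3 and Isca1, lay below both WT arrays on both Lin28A Tg arrays, and 0 lay above. Over all genes tested these shares were 16.8% and 21.6%.

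Other routes of pyruvate had a median of 0.05 over 8 tested genes of 14. Both Lin28A Tg arrays lay above both WT arrays for 2 of the 8, Pkm among them, and below for 0. Over all genes tested these shares were 21.6% and 16.8%. Pkm, the pyruvate kinase gene that supplies pyruvate, read 7434 and 6386 in Lin28A Tg and 5882 and 5549 in WT. Its log2 difference was 0.27 (SE 0.10, adjusted p = 0.553 with limma). It was 0.16 without Lin28A Tg replicate 1 and 0.38 without Lin28A Tg replicate 2. Gpt and Gpt2, the alanine transaminases, were at -0.22 (SE 0.14) and -0.36 (SE 0.26), both with overlap and the second at 0.00 without WT replicate 2, and the malic enzyme gene Me2 was at 0.08 (SE 0.07). Enzymes of the tricarboxylic acid cycle, which take up the acetyl-CoA, had a median of -0.04 over 14 tested genes of 16. Both Lin28A Tg arrays lay below both WT arrays for 4 of them and above for 0, where 16.8% and 21.6% of all genes did. By direction, 6 of the 14 were higher in Lin28A Tg and 8 lower, and the genes named next are among the lower ones. Suclg1 was at -0.18 (SE 0.07), Sdhc at -0.35 (SE 0.18) and Sdhb at -0.12 (SE 0.07). Without Lin28A Tg replicate 1 Sdhc was at -0.13, and without WT replicate 2 Sdhb was at -0.05. None of the genes in these lists had an adjusted p under 0.05.

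Pdk4 and Pdk2 varied most among the tested members, with log2 ranges of 0.68 and 0.50 over the 4 arrays. The 5 tested genes whose profile over these 4 arrays lay nearest to that of Pdk4, by Euclidean distance of centred log2 values, were Nrarp at 0.06, the collagen cross-linking gene Lox and the actin-binding gene Actn2 at 0.09, the transcription factor gene Klf6 at 0.10 and LOC100047934 at 0.12. Actn2, which encodes an alpha-actinin of the Z-disc, read 4447 and 4620 in Lin28A Tg and 2956 and 3673 in WT. Nearest to Pdk2 were Irf2bpl at 0.04, Asb8, Slc47a1 and the acetyltransferase gene Ep300 at 0.06, and Nutf2 at 0.07. With 4 arrays many profiles lie close together, and the distance is a description only.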

How the data were processed

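Messenger RNA of 4 quadriceps samples was read on Illumina Ref-8 arrays after labelling as biotin cRNA, per the labels' protocols. The deposited table holds linear intensities, 18091 rows with 1 row per symbol. Values of equal rank differed by a median of 0.0916% between arrays, so the authors had normalized between arrays. No software is named in the sources. A table whose 8 value columns match no sample label was not used. Symbols were updated through RefSeq names (14090 current, 3065 older, 50 with several matches, 886 with none). Of several rows of a gene the one with the highest mean was kept, leaving 17904 genes. Background was taken at the commonest intensity, 84.8, and its SD, 0.05 in log2 units, from the values below that. Genes above 90.05 on at least 2 arrays were tested.

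Lin28A Tg was compared with WT on log2 intensity with lmFit and eBayes (limma 3.58.1, R 4.3.3), across all genes, without covariates, with a threshold of 0.05 on the adjusted p. Python 3.11.15 and pandas 2.3.3 read the tables. The fit was tested on simulated data. The number of arrays limits the precision. The members, lists, background rule and tests were chosen with earlier results of these data known. Named were all members, the tested genes of the phosphatase and carrier list, the 4 of smallest p in each other list, Lin28a, and the 5 nearest profiles of the 2 members of widest range. One gene that this rule names is not reported here. Pgk1, Pdpr, Mpc1, marker genes and the regulators not above background are named outside that rule, after their values were seen. No more than promoter and microRNA sequences was used, so let-7 sites were not searched. Alternatives were another scale, 2 other filters, every row kept, another variance model, the replicate block, normexp at offsets of 16 and 50, centring, an adjusted p of 0.10 and leaving out each array.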

Additional observations from a re-analysis of the deposited data

How the results depend on the processing

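No member passed the threshold under any of the 14 alternatives, and no gene of the lists did. The number of genes called in all was 0 under each alternative except without WT replicate 2, where it was 15; with 1 array left out it ran from 0 to 15. The log2 difference of Pdk4 stayed between 0.41 and 0.64, with adjusted p from 0.273 to 0.931. With 1 array left out, Pdha1 ran from -0.20 to 0.18 and turned positive without Lin28A Tg replicate 1 (0.12) or WT replicate 2 (0.18). Dld ran from -0.074 (without WT replicate 2) to 0.020 (without WT replicate 1), Pdhb from -0.30 to -0.01, Pdk2 from 0.00 to 0.38, Dlat from 0.06 to 0.10 and Pdk1 from 0.01 to 0.03. Mpc2 ran from -0.224 to 0.0085, Pdp2 from -0.138 to 0.098 and Esrra from -0.230 to 0.0152, so their directions are not settled either. The cause was not tested. The lone array of a group is then assumed to vary like the other group. The stricter filter left Pdk1 and Dld untested.

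With the replicate number as a block, Pdk4 had the same log2 difference of 0.52 with an adjusted p of 0.572, and no call changed. Deviations of arrays with the same number correlated at r = 0.04 across genes, so the numbers are not taken to pair the samples. Signal over background limits Pdk1, Pdk3, Dld and Pdhx.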
